A study of Mus musculus with 15 samples.

Results

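Phldb2 and 5 genes whose products work with it at the cell cortex were followed in mouse testes after knockdown of muscarinic acetylcholine receptors. The 6 genes (Phldb1, Phldb2, Clasp1, Clasp2, Erc1 and Macf1) were taken by name, as the rows of the expression table whose Entrez ID maps to these symbols, a rule that uses no expression value, although earlier results of these data were known when they were chosen. All 6 were among the 23510 gene IDs of the table.

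The series held 15 testis libraries from ICR mice, an outbred stock, in 5 groups of 3. Con was the control group, and its labels do not say what these testes received. MNC received the vector control of the lentivirus, and M1, M3 and M5 received lentivirus with a mixture of 3 shRNAs against the receptor M1, M3 or M5, injected into the testes of pubertal males. The libraries hold the RNA of whole testis, so infected and uninfected cells of every type were measured together, and fewer cells of a type cannot be told apart from less RNA per cell. The labels do not state that the libraries of a group came from separate mice, so p-values measure the spread between libraries, which may be technical in part.

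LL5beta, the product of Phldb2, binds phosphoinositides of the plasma membrane and marks patches of the cortex near adhesions. Its paralogue LL5alpha (Phldb1) and the scaffold ELKS (Erc1) are part of these patches, which capture the growing ends of microtubules through the CLASP proteins (Clasp1, Clasp2). Macf1 encodes a large linker between actin and microtubules that acts on the same ends. In the testis, microtubule arrays shape the columns of Sertoli cells and form the manchette, the skirt of microtubules around the nucleus of an elongating spermatid.

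The build named in the submitters' processing notes is mm10, which is GRCm38, and the gene models of that assembly place the members as follows. Phldb2 lies on chr16:45746230-45953598 (minus strand), with 11 annotated transcripts. Phldb1 lies on chr9:44686308-44735248 (minus strand), with 18. Clasp1 lies on chr1:118389058-118609462 (plus strand) and Clasp2 on chr9:113740077-113919697 (plus strand). Erc1 lies on chr6:119570796-119848184 (minus strand) and Macf1 on chr4:123349633-123687802 (minus strand). Exons of Erc1 share 1919 bases with Gm44317, an antisense gene on the other strand. Whether reads were counted by strand is not given in the sources used here, so reads of the pair could have been counted together. Each value below is that of a whole gene ID, and isoforms were not measured apart. How the transcripts of a gene were combined is not given in the sources used here.

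The promoters of the LL5 pair and of Clasp2 are shown because the levels of these paralogues are compared below. Each is the 250 bases before a transcript start in RefSeq (GRCm38.p6), printed 5′ to 3′ on the strand of the gene. Capitals mark the GC box (GGGCGG), the cAMP response element or CRE (TGACGTCA) and its half-site (TGACG), each searched on both strands. The Phldb2 window is chr16:45844379-45844628 and the Clasp2 window is chr9:113741223-113741472. Both lie within the span of their gene given above, before internal starts of the gene model. The Phldb1 window is chr9:44735199-44735448, which crosses the end of its gene span at 44735248.
Phldb2: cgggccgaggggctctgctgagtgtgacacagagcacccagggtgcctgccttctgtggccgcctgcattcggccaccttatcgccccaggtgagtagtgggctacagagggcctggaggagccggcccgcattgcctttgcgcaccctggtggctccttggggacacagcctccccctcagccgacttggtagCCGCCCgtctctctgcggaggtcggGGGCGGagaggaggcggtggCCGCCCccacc
Phldb1: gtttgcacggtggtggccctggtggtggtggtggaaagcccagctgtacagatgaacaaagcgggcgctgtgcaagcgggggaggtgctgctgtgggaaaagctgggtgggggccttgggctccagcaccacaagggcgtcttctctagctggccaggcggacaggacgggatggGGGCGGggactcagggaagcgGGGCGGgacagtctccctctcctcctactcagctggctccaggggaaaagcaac
Clasp2: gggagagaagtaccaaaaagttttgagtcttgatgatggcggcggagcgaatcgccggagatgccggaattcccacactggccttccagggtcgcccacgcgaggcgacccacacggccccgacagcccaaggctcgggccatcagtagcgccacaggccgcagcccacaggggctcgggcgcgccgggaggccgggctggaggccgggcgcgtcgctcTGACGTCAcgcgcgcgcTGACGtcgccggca
The Phldb2 window was 70.0% G or C and held 3 GC boxes and no CRE. The Phldb1 window was 65.2% G or C and held 2 GC boxes and no CRE. The Clasp2 window held 1 full CRE and 3 half-site matches, 2 of which are the arms of the full element. RefSeq lists 2 further Clasp2 starts, and the windows before them held no GC box, CRE or half-site. Of 32851 promoters of the same length, 32.74% held a GC box, 17.77% a half-site and 1.55% the full CRE. Clasp1 is named only.

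Levels are given as FPKM, fragments mapped to a gene scaled to transcript length and to the library total. The length used for each gene is not given in the sources used here, so the order of the genes is one of FPKM values only. Clasp1 had the highest level of the 6 in every library, with a mean of 19.4 FPKM over 15 libraries (range 14.18 to 23.1). Macf1 followed with a mean of 9.52 FPKM (7.08 to 12.36) and exceeded every other member but Clasp1 in 15 of 15 libraries. Erc1 (mean 5.57 FPKM) and Clasp2 (mean 5.33 FPKM) were neighbours whose order changed. Erc1 was the higher of this pair in 11 libraries, while Clasp2 was the higher in the 3 Con libraries and in M5 replicate 3. Phldb1 (mean 1.57 FPKM) and Phldb2 (mean 0.961 FPKM) were the lowest, and Phldb1 was above Phldb2 within each of the 15 libraries. The mean of Phldb2 exceeded that of 37.8% of all gene IDs, against 80.7% for Clasp1.

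**Figure D1:**
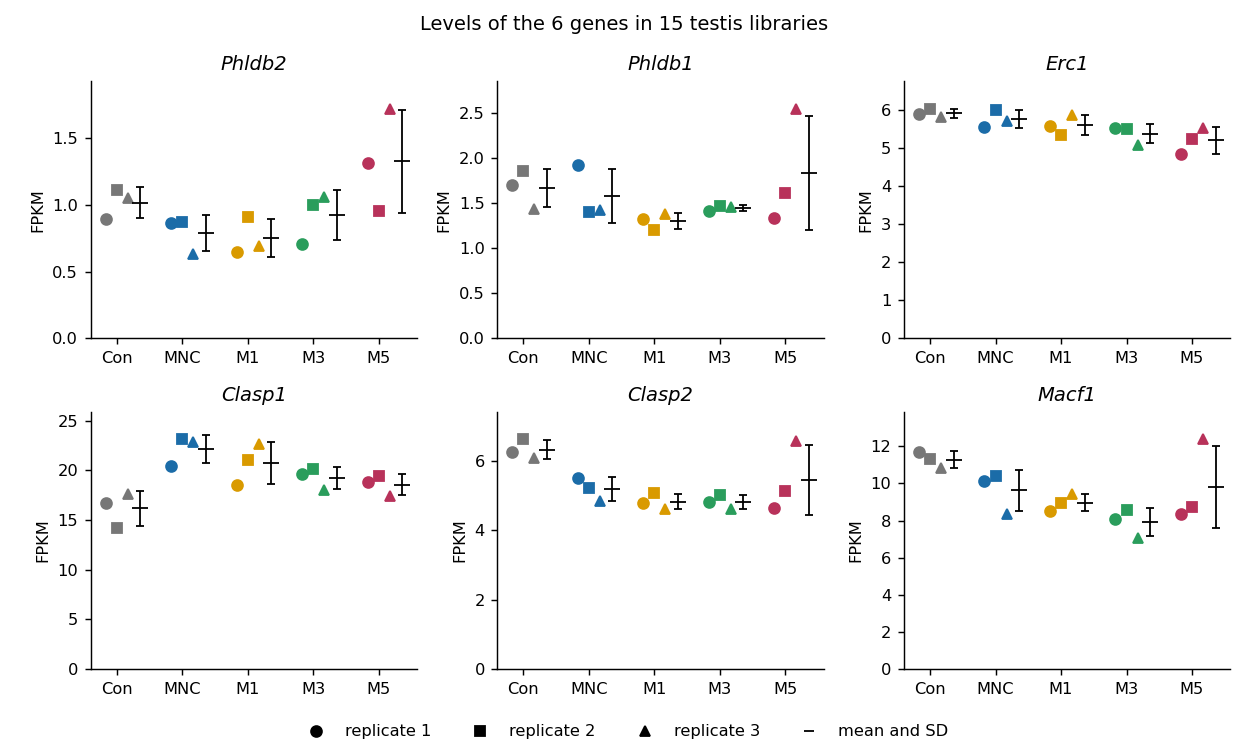
FPKM (y axis, from 0) of the 6 genes in each testis library, by group (x axis); the marker shape gives the replicate number and the black bar the mean and SD of 3 libraries. M5 replicate 3 (red triangle) is the highest of the 15 libraries for Phldb2 at 1.72, Phldb1 at 2.55 and Macf1 at 12.36, and the 4 lowest libraries for Clasp1 are those of Con and M5 replicate 3, at 17.37.

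The question behind the main comparison, M5 against the vector control, is what changes in the testis when the M5 receptor is knocked down. Phldb2 was measured at 1.31, 0.95 and 1.72 FPKM in M5, compared with 0.86, 0.87 and 0.63 FPKM in MNC. Every M5 library lay above every MNC library, and M5 replicates 1 and 3 were the highest of all 15, while replicate 2 lay within the range of Con. The mean was 68.6% higher in M5, at 1.33 ± 0.385 against 0.787 ± 0.136 FPKM (SD, n = 3 each). The log2 difference, on the scale of log2(FPKM + 1) used for every difference below, was 0.37 (exact permutation test, two-sided, p = 0.1, the smallest that 3 against 3 libraries allow). The limma fits took the 14514 genes that averaged at least 1 FPKM across all libraries, and Phldb2 lies just under this minimum. When every gene above 0 was tested, the limma adjusted p of Phldb2 was 0.248. With a pseudocount of 0.1 in place of 1 the log2 difference was 0.66. Without M5 replicate 3 it was 0.25 at the pseudocount of 1, and M5 still did not overlap MNC.

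Phldb1 was at 1.34, 1.61 and 2.55 FPKM in M5, compared with 1.92, 1.4 and 1.42 FPKM in MNC. The groups overlapped, and the highest M5 value came from replicate 3. The log2 difference was 0.12 with a 95% interval from -0.33 to 0.56 (limma adjusted p = 0.741). Without M5 replicate 3 it was -0.06.

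Erc1, the ELKS scaffold that also tethers secretory vesicles, was at 4.84, 5.24 and 5.54 FPKM in M5, compared with 5.55, 6.01 and 5.72 FPKM in MNC. All 3 M5 values lay under all 3 MNC values, the closest by 0.01 FPKM. The log2 difference was -0.12 with an interval from -0.35 to 0.10 and was not called (limma adjusted p = 0.463).

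Of the CLASP genes, Clasp1 was at 18.86, 19.46 and 17.37 FPKM in M5, compared with 20.48, 23.1 and 22.86 FPKM in MNC. The groups did not overlap, and M5 was lower by 16.2% in the mean. The log2 difference of -0.24 had an interval from -0.43 to -0.05, with an unadjusted p of 0.0198 in limma, and did not pass over all genes (adjusted p = 0.122). Clasp2 was at 4.65, 5.13 and 6.58 FPKM in M5, compared with 5.51, 5.23 and 4.84 FPKM in MNC, with M5 holding both the lowest and the highest value. Its log2 difference was 0.05, with an interval from -0.27 to 0.37, and was -0.07 without M5 replicate 3.

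Macf1 was at 8.35, 8.7 and 12.36 FPKM in M5, compared with 10.1, 10.4 and 8.35 FPKM in MNC. The values overlapped, with the highest in M5 replicate 3. The log2 difference was 0.01 with an interval from -0.38 to 0.40, and without that library it was -0.15. In M5 against MNC, 0 of the 5 members tested were called by limma, and 5.65% of all genes tested were called. An unadjusted p under 0.05 was found for 1 of the 5, Clasp1, and for 24.9% of all genes tested. The groups did not overlap for 3 of the 6 members, with Phldb2 higher and Clasp1 and Erc1 lower, against 32.1% of all genes tested.

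**Figure D2:**
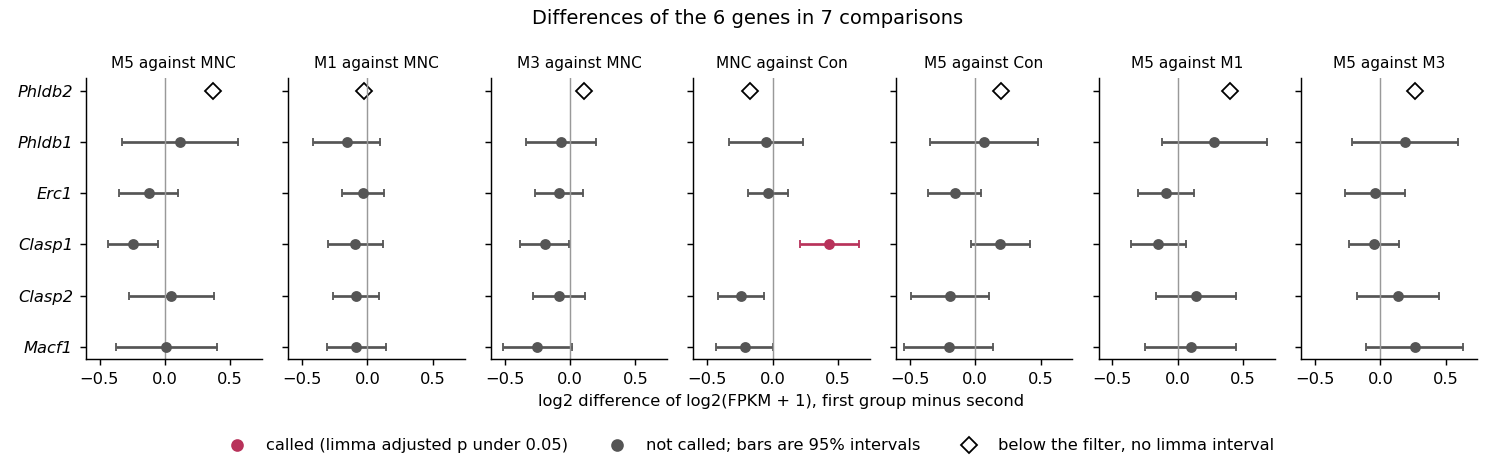
Log2 difference of log2(FPKM + 1) (x axis, first group minus second) for the 6 genes in 7 comparisons; circles with bars are limma estimates with 95% intervals, and open diamonds are Phldb2, which was below the minimum for limma. The interval of Clasp1 lies below 0 in M5 against MNC (-0.43 to -0.05), and Clasp1 in MNC against Con, at 0.43, is the only filled circle in red, the colour of a called gene.

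The same genes were compared after knockdown of M1 and of M3, with the same 3 MNC libraries as the control. Phldb2 was at 0.65, 0.91 and 0.69 FPKM in M1, a range that covered most of that of MNC (exact permutation p = 1, n = 3 each). In M3 Phldb2 was at 0.71, 1.0 and 1.06 FPKM, 2 libraries above MNC and 1 within it (log2 difference 0.10, exact permutation p = 0.4, n = 3 each). Phldb1 in M1, at 1.32, 1.2 and 1.38 FPKM, lay wholly under MNC, by -0.16 in log2 difference (limma adjusted p = 0.842). Clasp1 in M3, at 19.63, 20.14 and 17.98 FPKM, also lay wholly under MNC, by -0.19 (limma adjusted p = 0.518). Macf1 in M3 was at 8.1, 8.57 and 7.08 FPKM, a log2 difference of -0.25 with an interval from -0.52 to 0.01.

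None of the 5 members tested was called by limma in either comparison, where 0% (M1) and 0.00689% (M3) of all genes tested were called. An unadjusted p under 0.05 was found for 0 members and 862 genes in M1, and for 1 member, Clasp1, and 1369 genes in M3. The groups did not overlap for 1 member in M1 against 12.0% of all genes tested, and for 2 members in M3, Clasp1 and Erc1, against 17.1%. With so few genes called anywhere, these fits do not show that the members were unaltered.

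Set directly against the other knockdowns, Phldb2 in M5 lay above all 3 M1 libraries, with a log2 difference of 0.40 (exact permutation p = 0.1, n = 3 each; limma adjusted p = 0.219 with every gene above 0 tested). It overlapped M3, with a difference of 0.27 (exact permutation p = 0.3, n = 3 each). No member was called by limma in M5 against M1 or in M5 against M3, where 6.75% and 0.0138% of all genes tested were called. The groups did not overlap for 1 member, Phldb2, in M5 against M1, and for 0 members in M5 against M3, against 33.7% and 22.9% of all genes tested.

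MNC was also compared with Con. What the Con testes received is not stated, so injection, virus and vector cannot be told apart here. Clasp1 rose, from 16.76, 14.18 and 17.6 FPKM in Con to 20.48, 23.1 and 22.86 FPKM in MNC. All MNC libraries were above all Con libraries, and the mean was 36.9% higher (22.2 ± 1.45 against 16.2 ± 1.78 FPKM, SD, n = 3 each). The log2 difference was 0.43 ± 0.093 (SE; limma adjusted p = 0.0304), which makes Clasp1 the 1 member of 5 tested that was called, beside 20.4% of all genes tested. The call was lost when Con replicate 1 (adjusted p = 0.101), Con replicate 2 (0.0713), MNC replicate 2 (0.0816) or MNC replicate 3 (0.0715) was left out of the limma fit, and when every gene above 0 was tested (0.056).

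Clasp2 showed the opposite order, with 6.27, 6.62 and 6.08 FPKM in Con and 5.51, 5.23 and 4.84 FPKM in MNC. The groups did not overlap, and the log2 difference was -0.24 with an interval from -0.42 to -0.07 (limma adjusted p = 0.0594). Macf1 was at 11.7, 11.3 and 10.83 FPKM in Con, above all MNC values, with a log2 difference of -0.21 (limma adjusted p = 0.129). Phldb2 was at 0.89, 1.11 and 1.05 FPKM in Con and also lay wholly above MNC, by 0.02 FPKM at the closest. Its log2 difference was -0.18 (exact permutation p = 0.1, n = 3 each; limma adjusted p = 0.212 with every gene above 0 tested). The groups did not overlap for 4 of the 6 members, against 46.5% of all genes tested. For Phldb1 (1.7, 1.86 and 1.44 FPKM in Con) and Erc1 (5.89, 6.04 and 5.82 FPKM in Con) the groups overlapped.

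Con also differed from the 12 libraries with lentivirus (MNC, M1, M3 and M5) as a whole, a view chosen after the values were seen. Clasp1 was above the Con range in 11 of 12, Clasp2 below it in 11 of 12, and Macf1 below it in 11 of 12. The exception was M5 replicate 3 each time, where Clasp1 was at 17.37, Clasp2 at 6.58 and Macf1 at 12.36 FPKM. At least 11 of 12 libraries lay on 1 side of the Con range for 32.1% of all genes tested, and for 3 of the 6 members. In M5 against Con, 0 of the 5 members tested were called by limma (21.7% of all genes tested were), and the groups did not overlap for 1 member, Erc1, against 42.2%. Without M5 replicate 3, Clasp2 (log2 difference -0.32, adjusted p = 0.0272) and Macf1 (-0.37, adjusted p = 0.0117) fell in M5 against Con in the limma fit, in which 36.3% of all genes tested were called.

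Levels of some cell type markers also differed between these groups and libraries. In M5 against MNC, the main comparison, the summed level of 7 red blood cell markers was 147.8 to 491 FPKM in M5 and 21.92 to 35.51 FPKM in MNC. Limma called 3 of 5 red blood cell and 2 of 9 spermatocyte markers tested higher, and 1 of 7 elongating spermatid markers lower. No gene of the other lists was called there, beside the 5.65% of all genes tested that were. The sums of 9 spermatocyte markers (660.2 to 706.3 and 577.4 to 610.9 FPKM) and of 7 round spermatid markers (1042 to 1088 and 1144 to 1192 FPKM) did not overlap either, while those of the Sertoli, myoid, endothelial, Leydig, elongating spermatid, macrophage and interferon response lists did. In MNC against Con, the summed level of 7 elongating spermatid markers was 10920 to 21330 FPKM in Con and 22650 to 28870 FPKM in MNC, that of 9 spermatocyte markers 732.7 to 786.7 and 577.4 to 610.9 FPKM, and that of 11 interferon response genes 22.15 to 22.71 and 48.55 to 86.52 FPKM. Round spermatid sums (960.7 to 989 and 1144 to 1192 FPKM) and myoid sums (83.69 to 92.44 and 65.03 to 73.29 FPKM) did not overlap either. Nor did macrophage sums (42.6 to 51.96 and 60.09 to 114 FPKM), while those of the Sertoli, endothelial, Leydig and red blood cell lists did overlap. Of those tested in MNC against Con, limma called higher 9 of 9 interferon response genes, 4 of 7 round spermatid, 2 of 7 elongating spermatid and 1 of 6 macrophage markers. It called lower 6 of 9 spermatocyte, 3 of 6 myoid, 2 of 9 Sertoli and 1 of 5 red blood cell markers. No Leydig or endothelial marker was called, beside 20.4% of all genes tested. M5 replicate 3 stood apart from the other 14 libraries. It had the highest level of the 15 for 9 of 10 Sertoli cell markers (summed level 800.1 FPKM, against 435.1 to 687.5 in the others), for 4 of 6 markers each of peritubular myoid cells and endothelium, for 6 of 7 macrophage markers (141.4 FPKM, against at most 114), and for 8 of 11 interferon response genes (127.5 FPKM, against at most 86.52). Its sums for red blood cells (491 FPKM, against at most 167.3) and Leydig cells (3137 FPKM, against at most 1993) were the highest as well. Of their markers, 4 of 7 and 3 of 6 were at their highest in this library. Most of these sums came from Hba-a1 (341.76 FPKM) and Insl3 (2381.96 FPKM). No marker of the Sertoli, myoid, endothelial, Leydig or germ cell lists was at 0 in all libraries of any group. The part of these cell types, and of the interferon response genes, in the values of the members was not tested. The targeted receptor genes were at 0.43 FPKM or less in every library, with Chrm5 at 0.37, 0.22 and 0.37 FPKM in M5, compared with 0.43, 0.23 and 0.43 FPKM in MNC, so these transcripts do not check the knockdown.

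The balance within each pair of paralogues was taken as the ratio of their FPKM values in each library. The Clasp2 to Clasp1 ratio was 0.374, 0.467 and 0.346 in Con and 0.269, 0.226 and 0.212 in MNC. All Con libraries lay above MNC, with means of 0.396 and 0.236 and a log2 difference of -0.74 (exact permutation p = 0.1, n = 3 each; 0.42 adjusted over the 7 comparisons). In M1 the ratio was 0.204 to 0.259 and in M3 0.246 to 0.258, both under Con, and in M5 it was 0.247, 0.264 and 0.379, with replicate 3 inside the Con range.

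The Phldb2 to Phldb1 ratio was under 1 in all libraries. It was 0.978, 0.590 and 0.675 in M5 and 0.448, 0.621 and 0.444 in MNC, so the groups overlapped (log2 difference 0.55, exact permutation p = 0.2, n = 3 each; 0.525 adjusted over the 7 comparisons). The highest ratio came from M5 replicate 1, where Phldb2 was high and Phldb1 was not. In Con the ratio was 0.523 to 0.729, in M1 0.492 to 0.758 and in M3 0.503 to 0.726, so every other group overlapped M5.

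**Figure D3:**
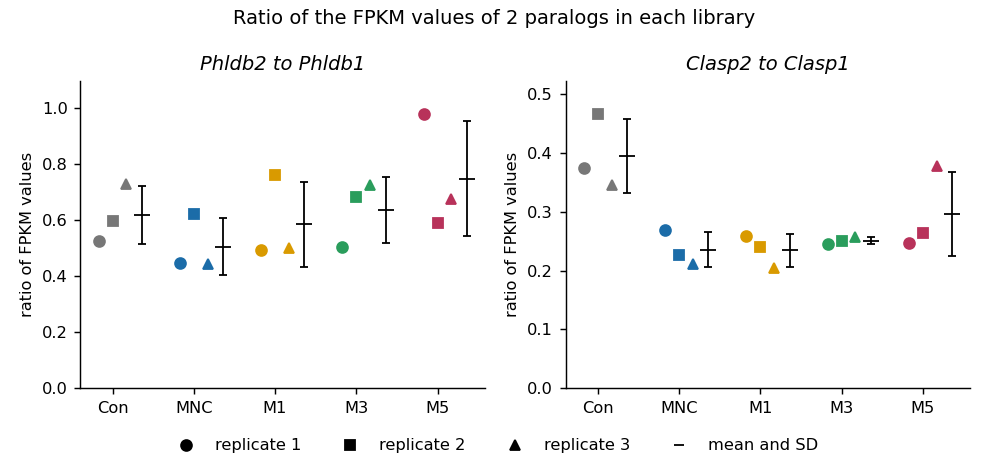
Ratio of the FPKM values of 2 paralogues (y axis, from 0) in each library by group (x axis), with the mean and SD of 3 libraries in black. Clasp2 to Clasp1 is highest in Con, at 0.346 to 0.467, with M5 replicate 3 at 0.379 the only other library in that range, and Phldb2 to Phldb1 overlaps between all groups.

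Across the 15 libraries, the level of Phldb2 was set against that of each of the other 5 members on the log2(FPKM + 1) scale. The permutations ran over all 15 libraries without regard to group, so their p-values mix differences between groups with covariation within them. Phldb2 went with Phldb1 at Pearson r = 0.615 (permutation p = 0.0202, 0.0834 adjusted over the 5 genes) and Spearman rho = 0.393 (permutation p = 0.151, 0.273 adjusted). The relation rested on few libraries. Without M5 replicates 1 and 3, the 2 farthest from the median of Phldb2, r was 0.384, and without M5 replicate 3 alone it was 0.188.

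Against Clasp1 the relation had the opposite sign, with r = -0.514 (permutation p = 0.0501, 0.0834 adjusted) and rho = -0.614 (permutation p = 0.0164, 0.0821 adjusted). It kept its size without those 2 libraries, at r = -0.585. Clasp2 gave r = 0.514 (permutation p = 0.0491, 0.0834 adjusted) and rho = 0.361 (permutation p = 0.188, 0.273 adjusted), with r = 0.559 without the 2 libraries and 0.294 without M5 replicate 3. Macf1 (r = 0.400, permutation p = 0.141, 0.177 adjusted; rho = 0.273, permutation p = 0.321) and Erc1 (r = -0.324, permutation p = 0.237; rho = -0.338, permutation p = 0.218, 0.273 adjusted) were at 0.268 and -0.128 without the 2 libraries. After the group means were removed, r was 0.605 for Clasp2, 0.539 for Macf1, 0.468 for Phldb1, -0.352 for Clasp1 and -0.0144 for Erc1. None of the 5 relations passed 0.05 after adjustment.

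**Figure D4:**
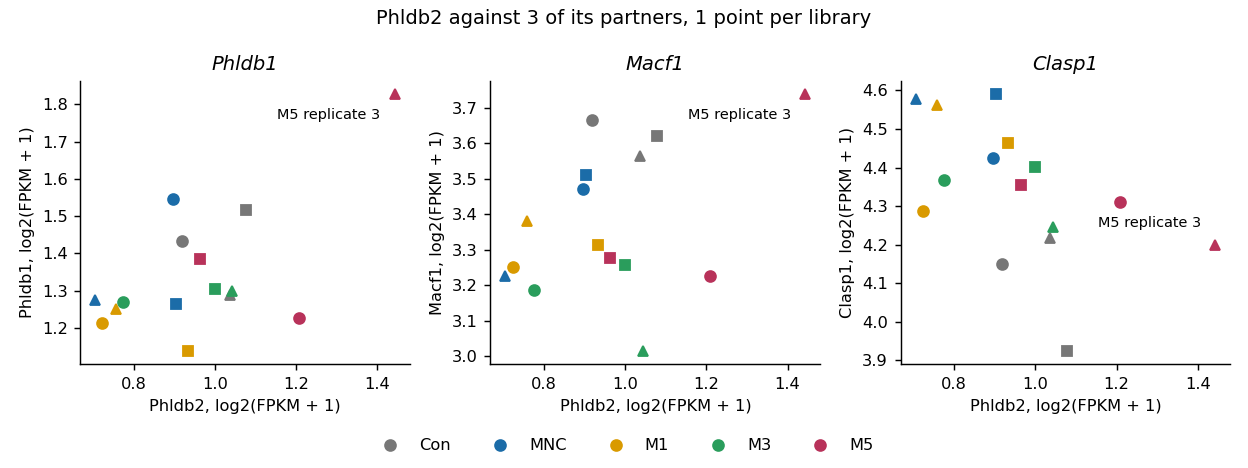
Level of Phldb2 (x axis) against Phldb1, Macf1 and Clasp1 (y axes), all as log2(FPKM + 1), with 1 point per library coloured by group and shaped by replicate number; the axes do not start at 0. M5 replicate 3 is the point farthest to the right in each panel, and the r of 0.615 with Phldb1 falls to 0.188 without it.

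Of 13608 named genes compared, the 5 whose levels were most like that of Phldb2 over the 15 libraries were Vamp7 (r = 0.943), Atg3 (0.942), Nr1d2 (0.933), Sec62 (0.927) and Trappc13 (0.922). Vamp7 encodes a SNARE of late endosomes, Atg3 an enzyme of autophagy, Nr1d2 a nuclear receptor of the circadian clock, Sec62 a part of the translocation machinery of the endoplasmic reticulum and Trappc13 a subunit of a vesicle tethering complex. Members were left out of this search by rule, and the highest r of a member was the 0.615 of Phldb1. The r of the 5 genes are given over all 15 libraries only. These are descriptions over libraries that share their groups.

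A wider list of 41 genes covers the proteins with which LL5beta patches are built or on which they act, and 36 of them passed the minimum for the limma fits. In M5 against MNC, 0 rose and 1 fell, beside the 5.65% of all genes tested that were called, and the median log2 difference was -0.01 (0.03 over all genes tested). The gene that fell was Mark2, a kinase that loosens microtubule-associated proteins from microtubules. Mark2 was at 18.06, 18.13 and 18.43 FPKM in M5, compared with 24.1, 23.21 and 28.81 FPKM in MNC, with no overlap. The log2 difference was -0.45 ± 0.092 (SE; limma adjusted p = 0.0441), and the limma call was lost without any 1 of the 6 libraries, at adjusted p from 0.0624 to 0.148. It was also lost with no filter (0.0729), median centring (0.0822), eBayes without trend (0.0722) and the GC trend removed (log2 difference -0.30, 0.12) in limma.

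By role, none of the 10 plus-end genes, 3 minus-end genes, 9 matrix adhesion genes, 5 liprin and KANK platform genes, 3 genes of receptor clustering at the synapse and 3 vesicle docking genes tested was called in M5 against MNC. With all 5 groups in one fit, 5 of the 36 genes were called there and 3 in M5 against M1. The shares of all genes tested that were called in that fit were 16.7% and 9.51%. Mark2 also fell against M1 (24.7, 26.66 and 23.15 FPKM, log2 difference -0.43 ± 0.066 SE, limma adjusted p = 0.0212). It was the 1 gene of the list called there, and the limma call was lost without any of 5 of the 6 libraries, all but M5 replicate 3, and with the GC trend removed (adjusted p = 0.0711). Against Con, where Mark2 was at 29.78, 29.56 and 31.6 FPKM, the difference was -0.71 ± 0.056 (SE; limma adjusted p = 0.00162), and it passed with each library left out and under every other setting tried. In M3 Mark2 was at 24.34, 25.95 and 18.74 FPKM, with replicate 3 near the M5 values.

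In MNC against Con, 5 of the 36 genes rose and 4 fell, with a median of -0.07 (-0.10 over all genes tested), beside the 20.4% of all genes tested that were called. With no filter, 2 of the 36 were called, beside 7.58% of all genes above 0. The largest rises were those of Camsap3, which caps microtubule minus ends (4.62, 3.71 and 4.73 FPKM in Con, 6.71, 8.07 and 7.5 FPKM in MNC; log2 difference 0.66, limma adjusted p = 0.0205), and Erc2, a paralogue of Erc1 (1.35, 1.56 and 1.44 FPKM in Con, 3.05, 1.93 and 3.28 FPKM in MNC; 0.60, limma adjusted p = 0.0435). The largest falls were those of Slain1, a plus-end protein (15.93, 14.54 and 13.31 FPKM in Con, 10.99, 10.83 and 8.88 FPKM in MNC; -0.48, limma adjusted p = 0.0307), and Kif21a, the kinesin bound by KANK proteins (7.72, 6.67 and 6.37 FPKM in Con, 4.63, 5.53 and 4.78 FPKM in MNC; -0.41, limma adjusted p = 0.0367). In the plus-end group 2 genes rose and 2 fell, and in the minus-end group 2 of 3 rose. The number called was 0 without Con replicate 1 or Con replicate 2, where 0.0551% and 1.34% of all genes tested were called. It was 2 without MNC replicate 2 (4.4% of all), and 3 without MNC replicate 3 or Con replicate 3 (7.11% and 9.25% of all). Of the named genes, the call of Kif21a was lost without any 1 of the 6 libraries and that of Erc2 without any but MNC replicate 2. Camsap3 lost its call without Con replicate 1, Con replicate 2 or MNC replicate 2, and Slain1 without these or MNC replicate 3.

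**Figure D5:**
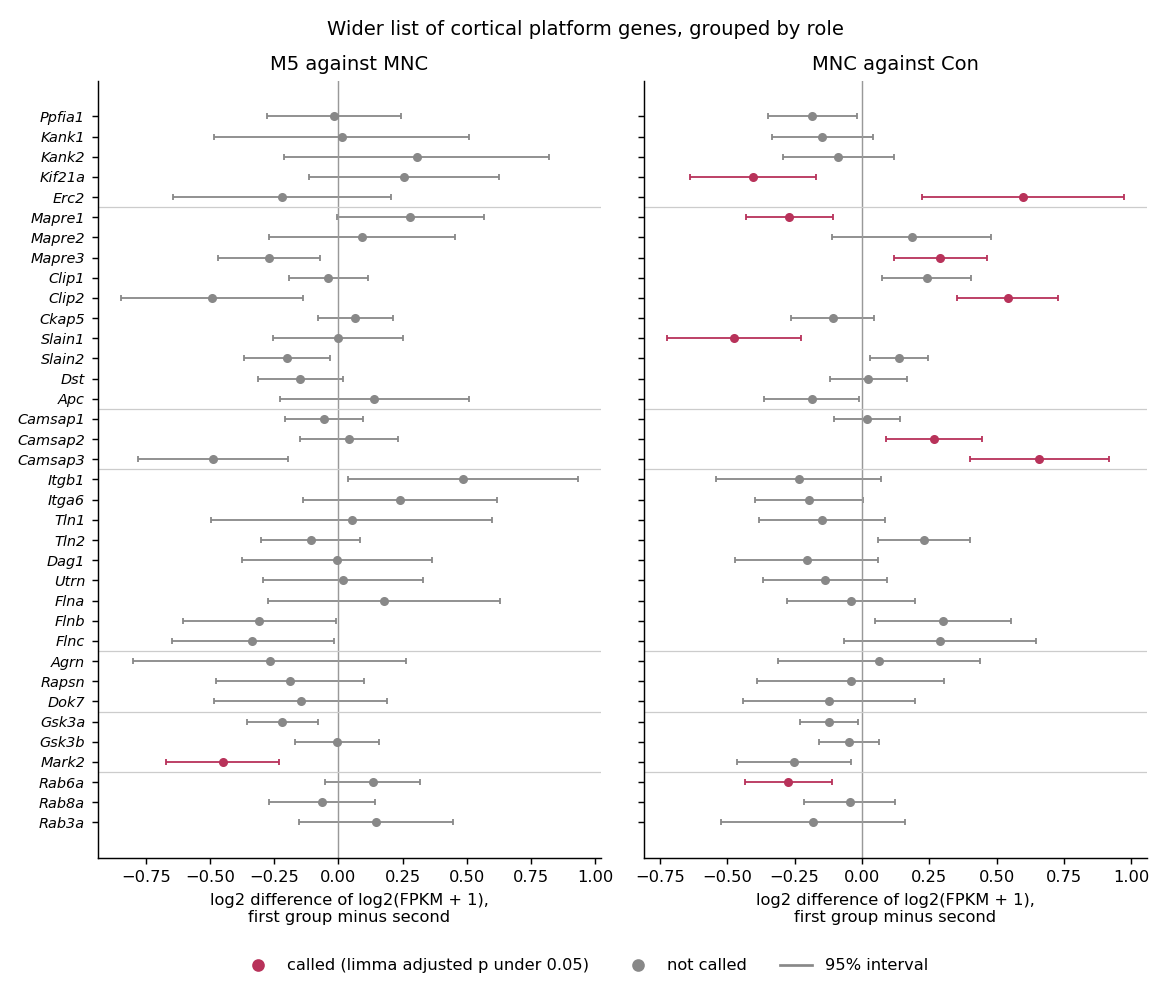
Log2 difference of log2(FPKM + 1) (x axes, first group minus second) of the 36 genes tested of the wider list, in M5 against MNC (left) and MNC against Con (right), with 95% intervals; grey lines part the roles and red marks genes called by limma. Mark2 is the 1 red gene on the left, at -0.45, and 9 genes are red on the right, from Slain1 at -0.48 to Camsap3 at 0.66.

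In M5 against Con, 1 gene of the list rose and 3 fell, with a median of -0.05 (-0.04 over all genes tested), beside the 21.7% of all genes tested that were called. Camsap2, also a minus-end protein, rose (14.9 ± 0.779 against 11.9 ± 0.772 FPKM, SD, n = 3 each; limma adjusted p = 0.0343). Slain1 (10.2 ± 0.614 against 14.6 ± 1.31 FPKM; limma adjusted p = 0.0145), Gsk3a, of the GSK3 kinases that release CLASP from microtubules (34.7 ± 1.24 against 44.2 ± 1.10 FPKM; limma adjusted p = 0.00932), and Mark2 fell. Without M5 replicate 3, 11 genes of the list were called (36.3% of all genes tested were), without Con replicate 1, 1 was (4.88% of all), and without Con replicate 2 or M5 replicate 2, 2 were (10.8% and 8.41% of all). Camsap2 lost its call without any library but M5 replicate 3, Slain1 without Con replicate 1, Con replicate 2 or M5 replicate 2, and Gsk3a without Con replicate 1.

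No gene of the list was called in M1 against MNC, M3 against MNC or M5 against M3. The gene with the lowest p was Agrn, the organiser of acetylcholine receptors at the nerve-muscle synapse, in M1 against MNC (1.75 ± 0.0656 against 2.58 ± 0.664 FPKM; log2 difference -0.36, limma adjusted p = 0.819). In M3 against MNC it was Camsap3 (-0.48, limma adjusted p = 0.518), and in M5 against M3 it was Rapsn, which clusters the nicotinic receptor (-0.50, limma adjusted p = 0.338). In M3 against MNC the median over the 36 genes was -0.12 (-0.04 over all genes tested), and 31 of them had a negative log2 difference. The share of all genes tested with a negative difference was not taken, so the 31 does not show a fall particular to this list.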

How the data were processed

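Poly(A) RNA of 15 testis libraries was sequenced on an Illumina HiSeq instrument. The authors mapped reads with SOAPaligner and deposited 1 table of FPKM values to 2 decimals. Their methods name RPKM, and the columns are named FPKM. The build is mm10 per the submitters' processing notes. The annotation is not given in the sources used here. Groups were taken from the titles, although the label text of the second M5 library points to the first M5 column. The extraction text speaks of sperm, and the titles of testis. Absolute depth is unknown, and summed FPKM was 470243 to 513817 per library.

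Differences were fitted on log2(FPKM + 1), a pseudocount of 1, in R 4.3.3 by limma 3.58.1, using lmFit followed by trended eBayes, each fit holding the 2 groups compared. Benjamini-Hochberg adjustment ran over the 14514 genes that averaged at least 1 FPKM, called at 0.05. The authors' own test models counts, which were not used here. In data simulated for M5 against MNC over 14514 genes, 79.9% of 200 genes changed by 1 log2 unit were called, and 4.9% of calls were on unchanged genes. The simulated noise was independent between genes, with an SD per gene pooled over all groups. All differences of the members were smaller than 1 log2 unit, so the 79.9% does not give the power to call them. Tests were two-sided. Permutation p-values of correlations used 100000 draws.

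All members are named. Of the wider list, all called genes are named where 4 or fewer were called, otherwise the 2 largest in each direction, and with none called the gene with the lowest p. The 5 genes most like Phldb2 were taken by Pearson r. Members and lists were chosen with earlier results of these data known. Alternatives were a pseudocount of 0.1, no filter, median centring, eBayes without trend, all 5 groups in one fit, a replicate block, removal of the trend with GC content (known for 13364 genes), a pseudocount in the ratios, and leaving out each replicate. Python 3.11.15, numpy 2.4.6 and pandas 2.3.3 were also used.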

Additional observations from a re-analysis of the deposited data

Results flagged for a closer look

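Mark2 differed between the M5 and M1 knockdowns, which share the vector control, when the groups were fitted against each other. The log2 difference was -0.43 (M5 18.06, 18.13 and 18.43 FPKM, M1 24.7, 26.66 and 23.15 FPKM; limma adjusted p = 0.0212, lower in 3 of 3 M5 libraries than in any M1 library). The limma call was lost with the GC trend removed (log2 difference -0.32, adjusted p = 0.0711), with the replicate number as a block (adjusted p = 0.105), and without any of the 6 libraries but M5 replicate 3.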

How the results depend on the processing

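Of the 7 comparisons, the number of members called changed in MNC against Con and in M5 against Con. In MNC against Con it was 0 with no filter (Clasp1 log2 difference 0.43, limma adjusted p = 0.056), and 0 to 1 when 1 replicate was left out. In M5 against Con it was 0 to 2 when 1 replicate was left out, with 2 called without M5 replicate 3. The labels do not say whether the replicate numbers pair the libraries. In no comparison did each same-numbered pair deviate together (r from -0.052 to 0.177 in M5 against MNC), but 3 libraries per group are too few to exclude pairing. With the replicate block 0 members were called in MNC against Con (Clasp1 limma adjusted p = 0.0662), where the genes called went from 2967 to 10.

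Some small differences changed sign. With median centring, the log2 difference of Macf1 in M5 against MNC was -0.026, of Phldb2 in M1 against MNC 0.002, and of Phldb1 and Erc1 in MNC against Con 0.040 and 0.057. With the GC trend removed, Clasp2 and Macf1 were at -0.044 and -0.039 in M5 against MNC and Phldb1 at 0.041 in M3 against MNC. With a pseudocount of 1 in the ratio, Clasp2 to Clasp1 in M1 against MNC was 0.006. When 1 replicate was left out, values spanned -0.056 to 0.245 for Phldb1, -0.072 to 0.14 for Clasp2 and -0.151 to 0.106 for Macf1 in M5 against MNC, -0.095 to 0.011 for Phldb2 in M1 against MNC, -0.12 to 0.022 for Phldb1 in M3 against MNC, -0.143 to 0.001 for Phldb1 in MNC against Con, -0.107 to 0.194 for Phldb1 in M5 against Con, -0.064 to 0.193 for Macf1 in M5 against M1 and -0.079 to 0.003 for Erc1 in M5 against M3. They spanned -0.005 to 0.359 for the Phldb2 to Phldb1 ratio and -0.081 to 0.093 for the Clasp2 to Clasp1 ratio, both in M1 against MNC. The cause was not tested. Phldb2 in M5 against MNC was at 0.25 to 0.49 in these runs and at 0.662 with a pseudocount of 0.1.

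The genes called over the whole table varied more. In M5 against MNC they were 820, and 447 with no filter, 182 with median centring, 215 without the eBayes trend, 2424 with all 5 groups in one fit, 14 with the replicate block, 241 with the GC trend removed, and 35 to 946 when 1 replicate was left out. In MNC against Con they were 8 to 2497, in M5 against Con 708 to 5263 and in M5 against M1 56 to 1690 when 1 replicate was left out. The alternatives for the wider list were added after seeing the data. With the replicate block 0, 0, 1 and 0 of its genes were called in M5 against MNC, M5 against M1, M5 against Con and MNC against Con (Mark2 against MNC limma adjusted p = 0.107). In the same order, 0.0965%, 0.269%, 3.95% and 0.0689% of all genes tested were called with that block. Slain1 (0.0695), Gsk3a (0.0599) and Camsap2 (0.114) lost their calls against Con, and Camsap2 also with median centring (0.0647) and the GC trend removed (0.0525). Slain1 (0.0567), Erc2 (0.0835) and Kif21a (0.0645) lost theirs in MNC against Con with no filter, and Kif21a with median centring (0.0875). No read counts were used, and how depth limits Phldb2 is unknown.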

Other observations

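Ppfibp1, which encodes a liprin of the LL5beta platform, was singled out after its values were seen. It was listed at 4.67, 0.77 and 0.66 FPKM in MNC and at 0.46 FPKM or less in each of the other 12 libraries, with 0.03 to 0.08 FPKM in Con, 0.06 to 0.30 in M1, 0.05 to 0.42 in M3 and 0.17 to 0.46 in M5. It lay below the minimum for the limma fits and was not tested. MNC replicate 1 was the highest of the 15 libraries.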
